A study of Mus musculus with 30 samples.

Results

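Interferon-stimulated genes of an nCounter mouse inflammation panel were followed across 5 groups of mice. They are Ifit1, Ifit2, Ifit3, Ifi44, Ifi27l2a and Iigp1, taken by name from the deposited signal table, and they make up 6 of the 254 genes on the panel. The samples were peritoneal macrophages of C57BL/6 mice aged 12 to 16 weeks, collected 6 h after an intraperitoneal injection, with 6 samples labelled per group. Reversa, COX-1>COX-2, COX-2>COX-1 and wild-type mice (WT+LPS) received lipopolysaccharide (LPS), a bacterial cell wall component, at 2 mg/kg. Wild-type mice given the same volume of PBS were the control (WT-LPS). As these lines are known, though the labels give only their names, they carry exchanges between the cyclooxygenases COX-1, encoded by Ptgs1, and COX-2, encoded by Ptgs2. In COX-1>COX-2 mice COX-1 stands at the COX-2 locus, in COX-2>COX-1 mice COX-2 stands at the COX-1 locus, and Reversa mice carry both exchanges. No Reversa, COX-1>COX-2 or COX-2>COX-1 mice without LPS are among the samples, so each genotype was compared only under LPS. The exchanges are present in all cells of the mouse and not in macrophages alone.

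Type I interferons bind a receptor that activates transcription factors, which bind a DNA element upstream of their target genes, the interferon-stimulated response element. Interferon-gamma acts through a receptor of its own on an overlapping set of genes. In macrophages LPS is sensed by TLR4, which through IRF3 leads to the production of interferon-beta, so interferon-stimulated genes are a standard part of the macrophage answer to LPS. Ifit1, Ifit2 and Ifit3 encode proteins with tetratricopeptide repeats, and Ifit1 binds foreign RNA. Ifi44 encodes an interferon-induced cytoplasmic protein. Ifi27l2a encodes a small hydrophobic protein of mitochondria and the nuclear envelope. Iigp1, also called Irga6, is an immunity-related GTPase that acts on the vacuoles of intracellular parasites and is strongly induced by interferon-gamma.

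The DNA just upstream of the genes is shown because the interferon-stimulated response element is what the pathway acts on. The RefSeq promoter table for GRCm38.p6 listed 4 of the 6 genes. The core of the element, GAAA followed by any 2 bases and a second GAAA, was searched on both strands in the 250 bases before each start, and any overlapping matches were counted. Ifit1 held 2 matches, with 94 and 75 bases between the match and the start. Ifit3 also held 2, with 146 and 112 bases between match and start. Both windows of Ifit2 and the window of Ifi44 held 0. Among the 32851 windows listed there, 978 held the core (2.98%) and 59 held 2 or more (0.180%). Capitals mark the matches in the 3 stretches below.
Ifit1, chr19:34640785-34640814, plus strand: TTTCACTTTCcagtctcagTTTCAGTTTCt
Ifit3, chr19:34583363-34583392, plus strand: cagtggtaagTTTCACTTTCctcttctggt
Ifit3, chr19:34583397-34583426, plus strand: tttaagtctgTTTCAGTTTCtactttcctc

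All 4 matches in Ifit1 and Ifit3 had the letters TTTCACTTTC or TTTCAGTTTC. The Ifit1 stretch also lies within the span annotated for the related genes Ifit1bl1 and Ifit1bl2. Ifi44 is shown as a member without a match, and in the 60 bases before its start capitals mark each TTTC or GAAA.
Ifi44, chr3:151749911-151749970, minus strand: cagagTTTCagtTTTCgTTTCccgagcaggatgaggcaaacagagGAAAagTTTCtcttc
This stretch held 5 of the 6 TTTC or GAAA words in the 250 bases. Such a word occurred at least once in 86.4% of all windows, with a median of 2 per window, so it is common. Ifit2, which also had no match, held 2 such words in each of its windows. The matches are letters found in a window and were not tested as binding sites.

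Along their chromosome the annotation places Ifit2, Ifit3, Ifit1bl1, Ifit3b, Ifit1bl2, the pseudogene Cnn2-ps and Ifit1 in this order. Ifit3b is a close copy of Ifit3, and the probe sequences were not used here. The signals of Ifit3 and Ifit3b therefore cannot be told apart, and whether the Ifi27l2a probe also binds RNA of related Ifi27 genes was not checked for the same reason.

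Total signal per sample ran from 471534 to 773828. The estimated number of counted molecules ran from 298385 to 1001789, and the ends of these ranges fell in different samples. Of 240 negative control values 1 was above a signal of 20, which served as the limit of detection. The genotype labels were checked on both genes. Ptgs1 averaged 240.4 in Reversa, 441 in COX-1>COX-2 samples, 2.47 in samples of COX-2>COX-1, 238 in WT+LPS and 2652 in WT-LPS samples. Ptgs2 had 292 ± 142 in Reversa (SD, n = 5), 1.25 ± 0.334 in COX-1>COX-2 samples, 6471 ± 2273 in samples of COX-2>COX-1, 4909.9 ± 1135 in WT+LPS and 7.41 ± 11.6 in WT-LPS samples (SD, n = 6 each). Reversa samples 55 and 56 differed by a chi-square of 1.27 per gene in estimated counts (p = 0.00399), whereas no other pair of the 75 pairs of 1 group was under 20.9. They were averaged and counted as 1 sample, so Reversa has n = 5 in every mean and test, and results that change when they are kept apart are named. The labels describe separate mice, and nothing else shows whether cages or litters were shared. The samples were measured in 3 runs, each with 2 samples of every group. Reversa 55 and 56 were both in run 3, so each Reversa value within run 3 rests on 1 averaged sample. Each group kept the same lanes in every run, so lane and group cannot be told apart.

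The comparison of LPS with PBS asks which of the 6 genes respond in vivo. In wild-type mice 5 of the 6 were higher under LPS: Ifit1, Ifit2, Ifit3, Ifi44 and Iigp1, by 27.7-fold to 79.6-fold. Ifi27l2a did not pass the test. The test was limma on log2(signal + 1) over 202 genes with Benjamini-Hochberg adjustment, two-sided, with a threshold of 0.05. Of all 202 genes 49.5% were called higher in this comparison, and 45.5% lay above WT-LPS without overlap, so neither sets the 5 genes apart. By size of change Ifit1 stood 20th and Ifi44 22nd of the 202, and the median log2 change was 5.32 over the 6 genes and 0.47 over all genes tested.

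**Figure D1:**
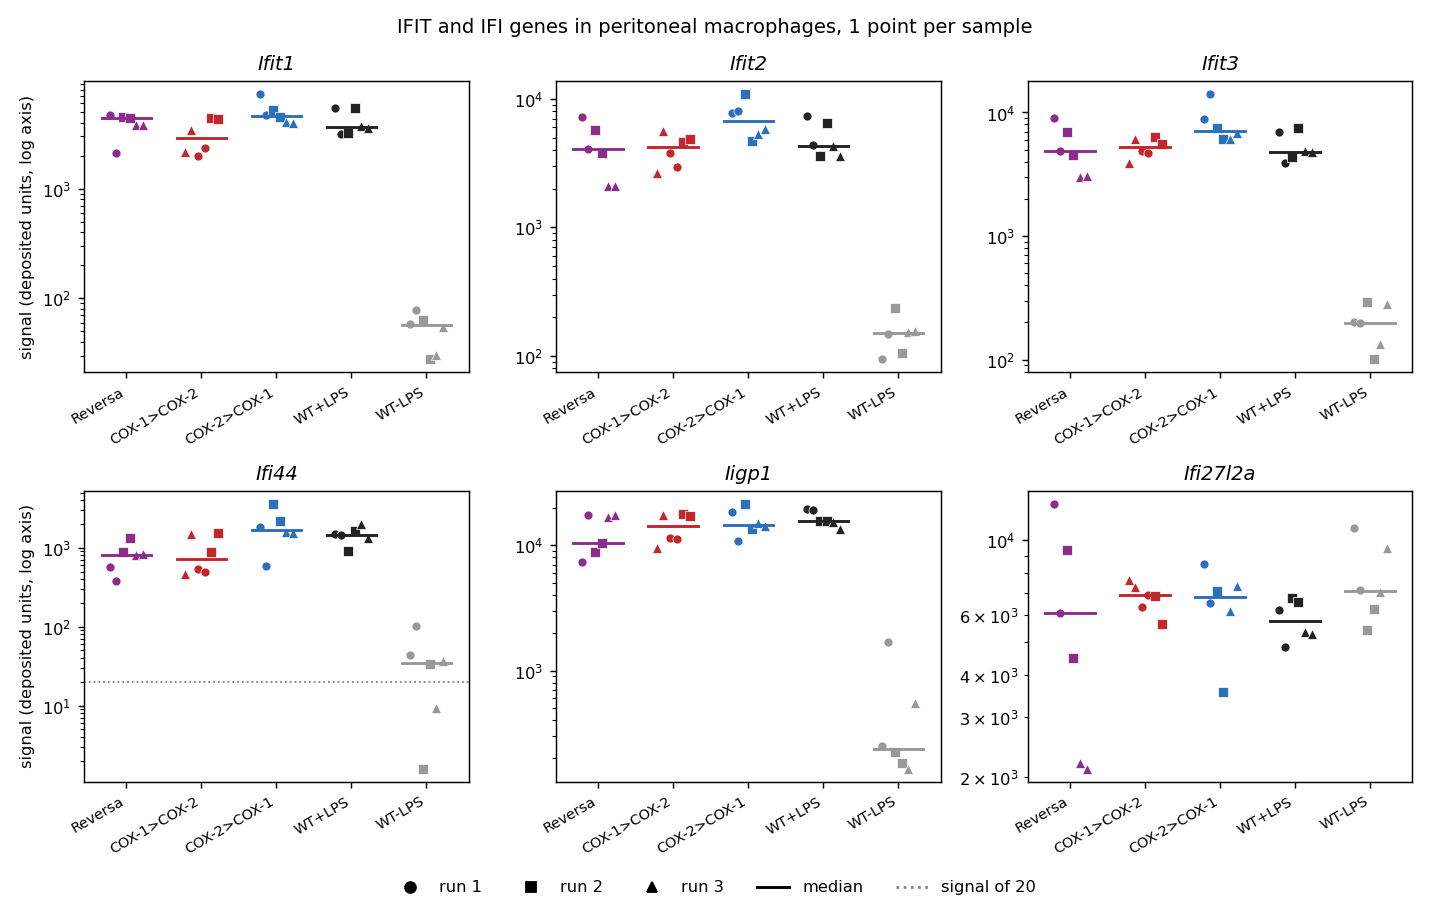
Signal of the 6 genes in each of the 30 samples, on a log axis that differs between panels. Points are samples, marker shapes are runs, lines are group medians (Reversa samples 55 and 56 are drawn apart and count once in the median), and the dotted line in the Ifi44 panel is a signal of 20. In 5 panels all LPS samples lie above all WT-LPS samples, and in the Ifi27l2a panel all groups overlap.

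Ifit1 had a signal of 3132 to 5424 in WT+LPS samples, with a median of 3622, against 27.8 to 77.8 in WT-LPS samples, with a median of 56.7. No LPS sample came near the PBS samples. The change of Ifit1 was 6.31 ± 0.26 on the log2 scale (SE, limma adjusted p = 1.57e-18), which is 79.6-fold with a 95% confidence interval of 54.8 to 116. Within the 3 runs it was 5.91, 6.60 and 6.44.

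Ifit2 ran from 3583 to 7344 in WT+LPS samples, median 4334, against 94.3 to 235 in WT-LPS samples, median 151. Its change was 5.05 ± 0.28 on the log2 scale, or 33.2-fold (SE, limma adjusted p = 8.44e-16). Ifit3 ran from 3926 to 7540.3 in WT+LPS samples, median 4826, against 101 to 295 in WT-LPS samples, median 199. Its change was 4.79 ± 0.27, or 27.7-fold (SE, limma adjusted p = 1.23e-15). Both genes were thus separated from PBS in all 6 WT+LPS samples.

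Ifi44 was the gene nearest to the limit of detection without LPS. It ran from 918 to 1996 in WT+LPS samples, median 1460.2, against 1.58 to 101 in WT-LPS samples, median 34.9, of which 2 were under 20. The groups did not overlap. The log2 change was 5.94 ± 0.58 (SE, limma adjusted p = 3.22e-10), with a 95% interval of 26.8 to 141-fold, which is the widest of the 5 genes. Within runs it was 4.43, 7.01 and 6.38, the run of 7.01 being the one that holds the WT-LPS sample at 1.58. Values under 20 entered as they stand, and leaving out single samples moved the change between 5.31 and 6.37.

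Iigp1 ran from 13586 to 19527 in WT+LPS samples, median 15562, against 164 to 1685 in WT-LPS samples, median 237. The top PBS sample, WT-LPS 38, stood well above the next one at 552. The groups still did not overlap, and the log2 change was 5.58 ± 0.38, or 47.8-fold (SE, limma adjusted p = 1.12e-13). Without WT-LPS 38 it was 6.04.

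Ifi27l2a behaved differently from the other members. Its signal ran from 4846 to 6747 in WT+LPS samples, median 5791, against 5436 to 10846 in WT-LPS samples, median 7075. The groups overlapped, the log2 change was -0.37 ± 0.28 (SE), and the 95% interval ran from -0.94 to 0.20 (limma adjusted p = 0.21). Within runs it was -0.68, 0.19 and -0.62. This call depends on the scaling. With signals rescaled to equal totals, which moved the median of all genes by -0.38, the change of Ifi27l2a was -0.75 (limma adjusted p = 0.0215). With equal medians, which moved it by -0.91, the change was -1.28 (limma adjusted p = 8.29e-05). It was negative under all 3 other scalings, whereas the other 5 genes kept their direction and their call under all of them.

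The same 5 genes were higher than in WT-LPS samples in each LPS-treated genotype, and their groups did not overlap with WT-LPS in any of them. The background was 47.5% of genes called higher and 38.1% above without overlap in Reversa. The single exchange COX-1>COX-2 had 47% and 39.6%. The values of COX-2>COX-1 were 51% and 42.6%. The 3 comparisons share the WT-LPS samples. Ifit1 changed by 6.24 ± 0.27 in Reversa, 5.89 ± 0.26 in COX-1>COX-2 and 6.60 ± 0.26 in mice with COX-2>COX-1 on the log2 scale (SE). Ifit2 changed by 4.88 ± 0.29, 4.78 ± 0.28 and 5.57 ± 0.28, and Ifit3 by 4.81 ± 0.28, 4.77 ± 0.27 and 5.37 ± 0.27, with the genotypes in the same order. Ifi44 changed by 4.97 ± 0.61 in Reversa, 5.10 ± 0.58 in COX-1>COX-2 and 6.16 ± 0.58 in COX-2>COX-1. For Iigp1 the changes were 5.07 ± 0.40 in Reversa, 5.32 ± 0.38 in COX-1>COX-2 and 5.47 ± 0.38 in COX-2>COX-1. The largest limma adjusted p among these was 2.61e-08, for Ifi44 in Reversa.

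Ifi27l2a was not called in any genotype as deposited, with log2 differences from WT-LPS of -0.35 ± 0.29 in Reversa, -0.15 ± 0.28 in COX-1>COX-2 and -0.25 ± 0.28 in COX-2>COX-1 (SE, limma adjusted p = 0.271, 0.62 and 0.402). With equal medians it was called lower in all 3, by -1.17 in Reversa, -0.95 in COX-1>COX-2 and -1.17 in COX-2>COX-1. Without Reversa sample 51 it was also called lower in Reversa as deposited, at -0.63 (limma adjusted p = 0.0375).

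**Figure D2:**
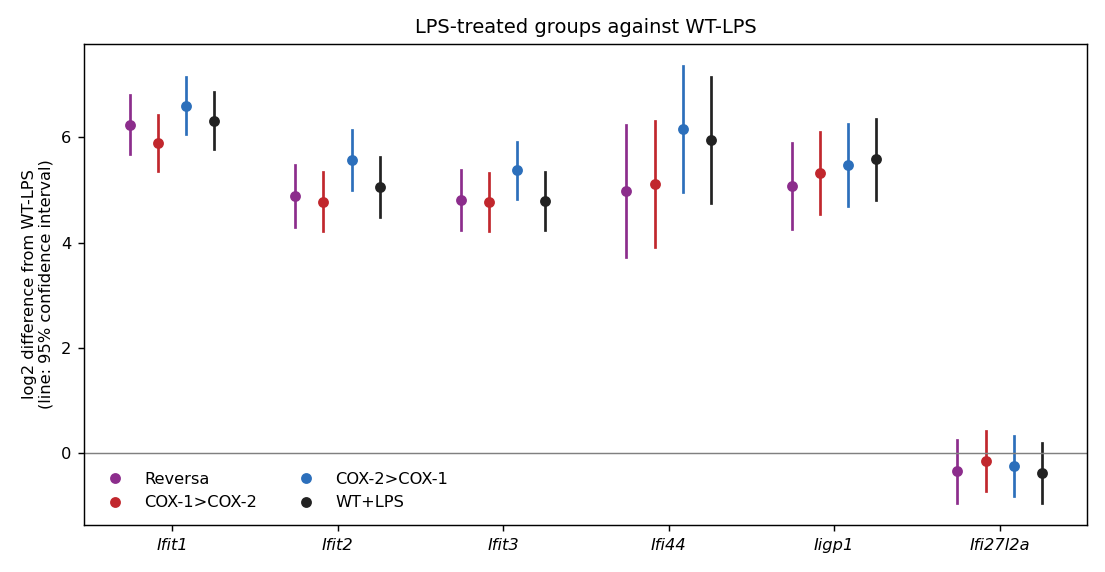
Log2 difference in signal of each LPS-treated group from WT-LPS for the 6 genes. Points are estimates and lines are 95% confidence intervals from the fit. All intervals of Ifit1, Ifit2, Ifit3, Ifi44 and Iigp1 lie above 0, and the 4 intervals of Ifi27l2a include 0.

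Genes of macrophages moved with LPS too. Of 9 macrophage markers measured, 6 were lower in WT+LPS than in WT-LPS samples (C1qa, C1qb, Tyrobp, Trem2, C3ar1 and Alox15), 1 was higher (Csf1) and 2 did not pass. Of all 202 genes 34.2% were called lower. Their summed signal ran from 32205 to 58682 in WT+LPS and from 103846 to 144339 in WT-LPS samples, and none was under 20 throughout a group. Markers of other cells moved in both directions, so their sums hide opposite changes. Of 4 T and NK cell markers tested Ifng and Fasl were higher and Cd4 and Cd40lg lower, with summed signals (Il2 included) of 481 to 1245 in WT+LPS and 237 to 431 in WT-LPS samples. Cxcr2 was higher and Mmp9 lower among neutrophil markers (sums 70.3 to 111 in WT+LPS and 59.7 to 228 in WT-LPS samples). Cd40 was higher and Ltb lower among B cell markers (2976 to 4111 in WT+LPS and 4446 to 5754 in WT-LPS samples). Il5 and Il13 summed to 5.76 to 57.7 in WT+LPS and 2.00 to 3.16 in WT-LPS samples, and Flt1 and Areg to 51.0 to 82.8 in WT+LPS and 2.00 to 6.50 in WT-LPS samples. Their part in the results was not tested, and in bulk RNA fewer cells of a type and less RNA per cell cannot be told apart.

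Most other measured targets of interferon were higher under LPS too. Of 8 other interferon-stimulated genes 7 were higher in WT+LPS than in WT-LPS samples, with a median log2 change of 3.78, and Hsh2d did not pass (0.49, limma adjusted p = 0.117). Cxcl10, a chemokine for activated T cells, averaged 49256 ± 10092 in WT+LPS and 5.47 ± 7.34 in WT-LPS samples (SD, n = 6 each), at least 2424-fold higher with the PBS values set to no less than 20. Oasl1, of the oligoadenylate synthetase family, averaged 7074 ± 2303 in WT+LPS and 65.0 ± 22.3 in WT-LPS samples, a log2 change of 6.77. Mx2, an antiviral GTPase, averaged 1186 ± 361 in WT+LPS and 77.5 ± 17.8 in WT-LPS samples, a log2 change of 3.89.

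Of 13 sensors and transcription factors of the pathway 7 were higher, Irf1, Irf7 and Tlr3 among them, 3 were lower (Tlr4, Irf3 and Irf5) and 3 did not pass, beside 49.5% of all genes called higher and 34.2% lower. Irf7, which amplifies type I interferon production, averaged 7600.4 ± 794 in WT+LPS and 425 ± 152 in WT-LPS samples (SD, n = 6 each). Irf1, a factor induced by interferon-gamma, averaged 16192 ± 1531 in WT+LPS and 2761 ± 1148 in WT-LPS samples. Tlr4, the LPS receptor, was lower, with 826 in WT+LPS and 1187 in WT-LPS samples (log2 change -0.52, limma adjusted p = 0.0339).

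Of the 3 interferons on the panel only Ifng was measured well enough to be tested. It averaged 704 ± 293 in WT+LPS and 3.39 ± 5.08 in WT-LPS samples (SD, n = 6 each), at least 32.9-fold higher. It averaged 399 ± 237 in Reversa, 556 ± 394 in COX-1>COX-2 and 622 ± 208 in COX-2>COX-1 samples. Ifna1 and Ifnb1 were under 20 in all wild-type samples at 6 h, at 5.52 to 15.9 against 1 to 5.39 for Ifna1 and 1 to 2.88 against 1 to 3.38 for Ifnb1 in WT+LPS against WT-LPS samples.

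The comparison of genotypes under LPS asks whether an exchange of the cyclooxygenases changed these genes. None of the 6 was called in any genotype against WT+LPS, in either direction. The share of all 202 genes called was 8.42% in Reversa and 0.99% in each single exchange, where limma called 17, 2 and 2 genes. At an unadjusted p under 0.05 there were 43 (21.3%), 18 (8.91%) and 26 (12.9%) of the 202 genes, with 0, 0 and 1 of the 6 members. The 3 comparisons share the WT+LPS samples.

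In Reversa the 3 Ifit genes lay close to WT+LPS. Ifit1 ran from 2102 to 4720.2 in Reversa, median 4451, against 3132 to 5424 in WT+LPS samples. Its difference was -0.08 ± 0.27 on the log2 scale (SE), with a 95% interval of 0.641 to 1.40-fold (limma adjusted p = 0.901). Ifit2 ran from 2101 to 7211 in Reversa, median 4053, with a difference of -0.17 ± 0.29. Ifit3 ran from 3038 to 8958 in Reversa, median 4879, with a difference of 0.02 ± 0.28. The sign of these 3 differences changed with the scaling or with single samples, so no direction can be given.

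Ifi44 ran from 378 to 1315 in Reversa, median 819, and the range overlapped with that of WT+LPS. The difference was -0.97 ± 0.61 on the log2 scale (SE, limma adjusted p = 0.365), and its 95% interval from -2.22 to 0.29 was wide. In COX-1>COX-2 samples Ifi44 ran from 469.9 to 1545, median 714, and differed from WT+LPS by -0.84 ± 0.58 (limma adjusted p = 0.63). Both differences were negative in all 3 runs, from -1.66 to -0.17 in Reversa and from -1.49 to -0.06 in COX-1>COX-2.

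Iigp1 ran from 7322 to 17483 in Reversa, median 10345, with a difference from WT+LPS of -0.50 ± 0.40 on the log2 scale (SE, limma adjusted p = 0.492). The difference was -0.77 and -0.70 in runs 1 and 2 and 0.24 in run 3, where Reversa has only the averaged sample. Ifi27l2a ran from 2153 to 12822 in Reversa, a spread of 5.95-fold within 1 group, against 1.39-fold in WT+LPS samples. Its mean difference was 0.02 ± 0.29. The 2 averaged samples were the lowest of all 30 for this gene, at 2192 in sample 55 and 2115 in sample 56. With both kept apart the difference was -0.22.

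In COX-1>COX-2 samples Ifit1 ran from 1974 to 4450.3, median 2879, Ifit2 from 2649 to 5610.2, median 4191, and Ifit3 from 3901 to 6291, median 5223. The differences from WT+LPS were -0.43 ± 0.26, -0.28 ± 0.28 and -0.02 ± 0.27 on the log2 scale (SE, limma adjusted p = 0.569, 0.771 and 0.977). Iigp1 ran from 9502 to 17766, median 14231, and differed by -0.26 ± 0.38. Ifi27l2a ran from 5664 to 7625, median 6876, and differed by 0.22 ± 0.28. All ranges overlapped with WT+LPS.

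The Ifit genes had their highest medians in COX-2>COX-1 samples. Ifit3 ran from 6046 to 14033, median 7142, against 3926 to 7540.3 in WT+LPS samples, median 4826. Its difference of 0.58 ± 0.27 on the log2 scale (SE) had a 95% interval of 0.03 to 1.12 and was positive in all 3 runs (1.09, 0.24 and 0.41), but it did not pass over the panel (limma adjusted p = 0.354). Leaving out single samples moved it between 0.41 and 0.68. Ifit2 ran from 4730.3 to 10858, median 6783, and differed by 0.52 ± 0.28 (limma adjusted p = 0.469). Ifit1 ran from 3973 to 7252, median 4582, and differed by 0.29 ± 0.26 (limma adjusted p = 0.743).

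The other 3 genes lay closer to WT+LPS. In COX-2>COX-1 samples Ifi44 ran from 587 to 3622, median 1705, and differed by 0.22 ± 0.58 on the log2 scale (SE). Iigp1 ran from 10789.6 to 21426, median 14589, and differed by -0.10 ± 0.38. Ifi27l2a ran from 3562 to 8501, median 6793, and differed by 0.12 ± 0.28. Their limma adjusted p-values ran from 0.938 to 0.948.

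The 3 Ifit genes differed most between the single exchanges. COX-1>COX-2 samples were lower than COX-2>COX-1 samples by -0.79 ± 0.28 for Ifit2, -0.71 ± 0.26 for Ifit1 and -0.60 ± 0.27 for Ifit3 on the log2 scale (SE), with 95% intervals that did not include 0. None passed over all genes (limma adjusted p = 0.0788, 0.0941 and 0.167), where 5.94% of the 202 genes were called. At an unadjusted p under 0.05 there were 46 genes in all (22.8%) and these 3 of the 6 members. Each difference was negative in all 3 runs but uneven in size. Run 1 was widest, at -1.25 for Ifit2, -1.43 for Ifit1 and -1.21 for Ifit3. Run 2 had -0.60, -0.14 and -0.19, and run 3 had -0.53, -0.58 and -0.39, with the genes in the same order. Leaving out single samples gave -0.90 to -0.66 for Ifit2, -0.83 to -0.60 for Ifit1 and -0.67 to -0.43 for Ifit3. Their size depends on the scaling. Equal totals moved the median of all genes in this comparison by 0.25, and all 6 reference genes or equal medians by 0.12, which makes negative differences smaller. The 3 genes kept their sign and were not called under these scalings. With the 2 groups fitted alone Ifit2 was called (limma adjusted p = 0.0486), in a fit that called 22 of the 202 genes. Ifi44 differed by -1.06 ± 0.58 (limma adjusted p = 0.292), and it was negative in each run too, from -1.28 to -0.90. Iigp1 and Ifi27l2a differed by -0.15 ± 0.38 and 0.10 ± 0.28. The T cell marker Cd4 was also lower (-0.89, limma adjusted p = 0.0284) and Flt1 higher (0.98, limma adjusted p = 0.0345), while Areg, listed with Flt1 as a stromal marker, averaged 13.1 in COX-1>COX-2 and 20.5 in COX-2>COX-1 samples and was not called. Their part was not tested.

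Reversa was also compared with each single exchange. Against COX-2>COX-1, Ifit2 differed by -0.69 ± 0.29, Ifit3 by -0.56 ± 0.28 and Ifi44 by -1.19 ± 0.61 on the log2 scale (SE, limma adjusted p = 0.15, 0.223 and 0.223). None of the 6 was called, while 10.9% of all genes were, and 45 genes (22.3%) and 1 member had an unadjusted p under 0.05. Without Reversa sample 51, Ifit2 was called lower at -0.88 (limma adjusted p = 0.0474). Against COX-1>COX-2, the differences ran from -0.25 for Iigp1 to 0.35 for Ifit1. None was called there, against 1.49% of all genes, and 30 genes (14.9%) but 0 members had an unadjusted p under 0.05.

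The interaction asks whether the COX-2>COX-1 exchange changed a gene by the same amount in mice with and without the COX-1>COX-2 exchange. None of the 6 genes was called, against 1.98% of all 202 genes, and 18 genes (8.91%) but 0 members had an unadjusted p under 0.05. The widest difference was that of Ifit3, at -0.54 ± 0.39 on the log2 scale (SE, limma adjusted p = 0.862). Its 95% interval ran from -1.33 to 0.25.

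**Figure D3:**
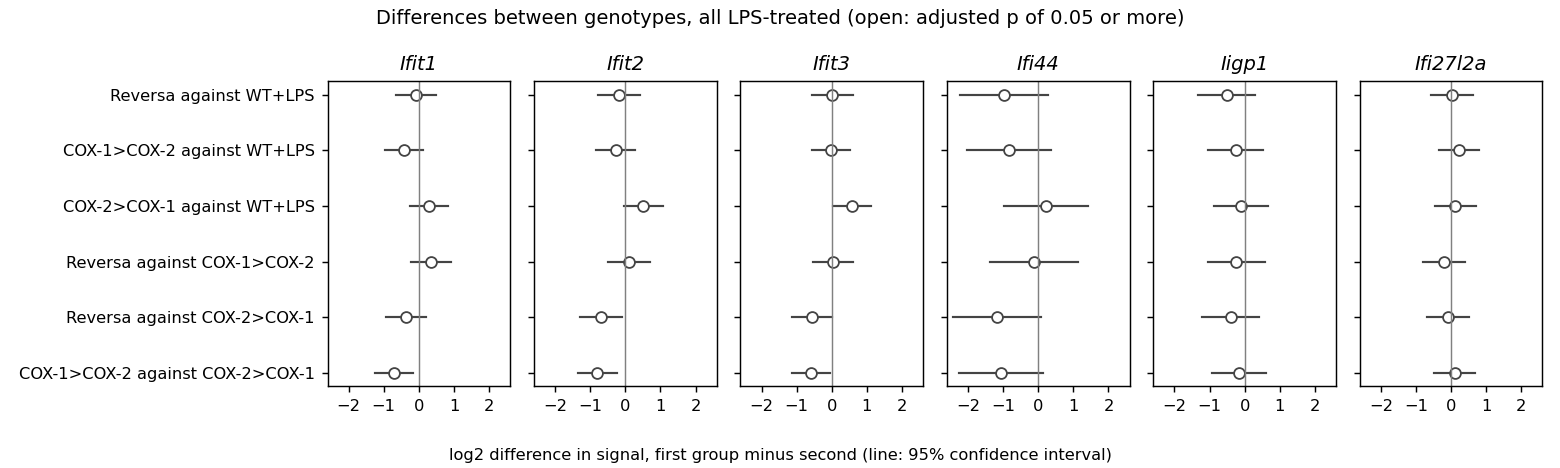
Log2 differences in signal between LPS-treated groups for the 6 genes, each as the group named at the left minus the group named after it. Points are estimates, open because no adjusted p was under 0.05, and lines are 95% confidence intervals. The intervals of Ifit1, Ifit2 and Ifit3 for COX-1>COX-2 against COX-2>COX-1 lie below 0 before adjustment over genes.

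By geometric mean over the groups, Ifit1 and Ifit2 had the same order, with COX-2>COX-1 highest, then WT+LPS, Reversa, COX-1>COX-2 and WT-LPS. Ifit3 had COX-2>COX-1 highest, then Reversa, WT+LPS and COX-1>COX-2, and WT-LPS lowest. Ifi44 had COX-2>COX-1 highest, then WT+LPS, COX-1>COX-2, Reversa and WT-LPS. For Iigp1 WT+LPS was highest, then COX-2>COX-1, followed by COX-1>COX-2, Reversa and WT-LPS. In these 5 genes the lowest LPS group and WT-LPS were the only neighbours called different (limma adjusted p under 0.05). Neighbouring LPS groups were not called different. In Ifi27l2a WT-LPS was highest and WT+LPS lowest, and no neighbours were called different.

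The pathway lists showed few calls between genotypes. Cxcl9, a chemokine induced by interferon-gamma, had 1724 in Reversa sample 52, 355 in 51, 425 in 54, 350.2 in 53, 1019 in 56 and 974 in 55, against 1816 to 3969.8 in WT+LPS samples, median 2909. The groups did not overlap. Cxcl9 was lower in Reversa by -2.12 ± 0.52 on the log2 scale (SE, limma adjusted p = 0.00911), and it was the only one of the 8 other interferon-stimulated genes called there. It was also lower in Reversa than in COX-2>COX-1 samples (1249 to 4300.2, median 2049.7), by -1.81 ± 0.52 (limma adjusted p = 0.0287), though this call was lost with equal medians and without Reversa 51, 53 or 54 or COX-2>COX-1 53 or 56 (limma adjusted p up to 0.074).

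Mx2 was lower in COX-1>COX-2 than in COX-2>COX-1 samples, with 809 to 1369.9, median 980.2, against 1277 to 2978, median 1603. The difference of -0.73 ± 0.22 on the log2 scale (SE, limma adjusted p = 0.0407) was lost with equal totals, with all 6 reference genes, with the run as a block, and without COX-1>COX-2 33, 55, 57 or 58 or COX-2>COX-1 51, 52 or 55 (limma adjusted p up to 0.103). It was the only call among the 8 genes in that comparison, and the 13 sensors and factors had 0 calls in any comparison between genotypes.

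Among markers of other cells only 2 were called in Reversa against WT+LPS samples, beside 8.42% of all genes in either direction. None of 2 neutrophil, 4 T and NK cell, 2 B cell and 2 mesothelial and stromal markers tested was called. Il5 and Il13, listed as markers of mast cells and eosinophils, were both called higher in Reversa than in WT+LPS samples (limma adjusted p = 0.0164 and 0.000509). In WT+LPS 4 of 6 samples were under 20 for Il5 and 6 of 6 for Il13, so the changes are bounds, at least 2.69-fold and at least 1.89-fold, with summed signals of 45.6 to 223 in Reversa and 5.76 to 57.7 in WT+LPS samples. Of 9 macrophage markers 3 were lower in Reversa (C1qa, C1qb and Trem2), beside 6.93% of all genes, and the sum of the 9 ran from 16351 to 39577 in Reversa and from 32205 to 58682 in WT+LPS samples. Their part in the values of the 6 genes was not tested.

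The spread within groups was itself uneven among the 6 genes. Over the 23 LPS samples Ifit2 and Ifit3 moved together, with a Pearson r of 0.87 (Spearman rho 0.93) and 0.84 after group means were removed. Ifit1 followed them less closely, at 0.68 with Ifit2 (rho 0.79) and 0.61 with Ifit3 (rho 0.77). Iigp1 stood apart from Ifit3 at -0.14 (rho 0.04), and from Ifi27l2a at -0.35 (rho -0.17), while it followed Ifi44 at 0.55 (rho 0.42). The sign for Iigp1 with Ifit3 thus depends on the measure. Ifi27l2a, the gene without an LPS call, followed Ifit3 at 0.57 (rho 0.52) and Ifit2 at 0.53 (rho 0.42). These correlations describe samples of 4 groups that share runs and the scaling to 2 reference genes, and no test was made.

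**Figure D4:**
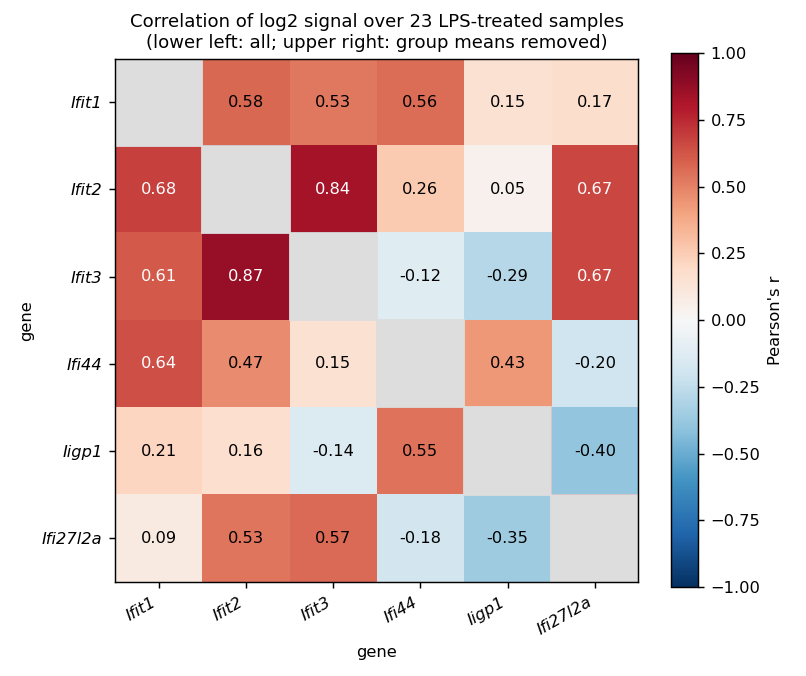
Pearson correlation of log2(signal + 1) between the 6 genes over 23 LPS-treated samples. Cells at the lower left use the values as they are and cells at the upper right use values with each group's mean removed. Ifit2 and Ifit3 have the highest correlation in both, and Iigp1 has negative values with Ifit3 and Ifi27l2a. The Spearman rho of Iigp1 with Ifit3, not drawn, was 0.04.

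Among the Reversa samples Ifi27l2a and Iigp1 ran in opposite directions in part. Reversa counts 5 samples, with 55 and 56 as 1, and over all 23 LPS samples the pair had an r of only -0.35 (rho -0.17). Sample 51 had the highest Ifi27l2a, 12822, and the lowest Iigp1, 7322. Samples 55 and 56 had the lowest Ifi27l2a, 2192 and 2115, with 16928 and 17278 for Iigp1. Sample 53, with 9364 for Ifi27l2a, had 8888 for Iigp1, whereas sample 54 had 4496 and 10345. Sample 52 did not keep to this order, with the group median of Ifi27l2a, 6107, and the highest Iigp1, 17483. Ifit3 was likewise highest in sample 51, at 8958, and lowest in samples 55 and 56, at 2997 and 3079. The contrast of Ifi27l2a and Iigp1 was not seen in COX-2>COX-1. Its sample 51, highest for Ifi27l2a at 8501, had 18509 for Iigp1, and its sample 54, lowest at 3562, had 13488.

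Among the genes tested, those most like each member over the 23 LPS samples were found by Pearson r, with r without the 2 samples farthest from the member's median given as a check. Ifit1 was most like Mx1 (0.89, 0.84 without the 2 samples), Stat3 (0.85, 0.85) and Relb (0.84, 0.80). Ifit2 was most like Stat3 (0.78, 0.80), Lta (0.73, 0.73) and Cd40 (0.71, 0.70). Ifit3 was most like Oasl1 (0.89, 0.79), Cd86 (0.83, 0.65) and Map2k4 (0.82, 0.73).

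Ifi44 was most like Ccl5 (0.79, 0.75 without the 2 samples), Tlr8 (0.75, 0.68) and Il18 (0.72, 0.72). Iigp1 was most like Oas1a (0.90, 0.85), Nlrp3 (0.87, 0.77) and Cxcl9 (0.87, 0.78). Ifi27l2a was most like Tlr9 (0.77, 0.43), Hmgb1 (0.76, 0.55) and Tlr7 (0.73, 0.61), and its r with Tlr9 dropped most of these 18 when the 2 samples were left out. The Spearman rho of these 18 pairs ran from 0.54 for Ifi27l2a with Hmgb1 to 0.87 for Iigp1 with Oas1a.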

How the data were processed

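RNA of 30 samples was counted with colour-coded nCounter probes, without amplification. The deposited values are the authors' normalised signal, 1 per gene and sample. The steps from counts to signal are not given in the sources used here and were read from the values. A background was taken off, and every lane has the same geometric mean of Cltc and Gapdh, 8147.9. Values have a floor of 1, or of about 1 count in lanes where 1 count was worth more than 1 signal unit. Per the labels' protocols, RNA had an integrity number set as a minimum before measurement. Because low values lie on whole steps (100% within 0.1 of a step), 1 count was worth 0.646 to 1.94 signal units. These estimates served for depth and for comparing sample pairs by chi-square. A count test was not run, as a background had been taken off.

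Groups came from the labels and runs from the column names. All 29 samples entered 1 limma 3.58.1 fit (R 4.3.3, lmFit, eBayes) on log2(signal + 1) with a mean per group. A gene was tested if its signal passed 20 in 6 or more samples, which left 202 of 248 targets and all 6 members. The 6 reference genes were not tested. Adjusted p-values are Benjamini-Hochberg over the 202 genes in each comparison, and 11 comparisons were made. The added 1 makes fold changes of low genes smaller. Signals under 20 otherwise entered as they stand, so folds that rest on them, as for Ifi44 against WT-LPS, are uncertain in both directions. "At least" folds set each value of a group mostly under 20 to no less than 20. Signals have no unit of length and levels were not compared between genes.

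Genes named beside the 6 members are up to 4 per pathway list and comparison with the smallest p among those called, and the 3 most like each member. Hsh2d, Tlr4, Ifna1, Ifnb1 and the marker genes were named after their values were seen. The members and lists were chosen with earlier results of these data known. The fits were tested on simulated data. Alternatives were 3 other scalings, no filter and a stricter one, a pseudocount of 10, only the groups compared, run and replicate number as blocks, a prior variance that follows the mean, Reversa 55 and 56 kept apart, and each sample left out. Upstream windows came from RefSeq (GRCm38.p6). Replicate numbers are the same in some groups, but they did not pair the samples: the 16 same-numbered pairs correlated at -0.35 to 0.23 in their deviations from group means. Values of 1 gene of the pathway lists are not reported here.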

Additional observations from a re-analysis of the deposited data

Results flagged for a closer look

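Each gene and group was searched for a sample far from the others of its group, by Dixon's test at 95%. Of 30 combinations 3 held one, and for normally distributed values chance alone gives about 1 in 20. The search used the signal itself and not its log2, on which high values stand out less. All 3 were the highest of their group, and whether they stand apart on the log2 scale was not tested. Ifit1 in COX-2>COX-1 sample 51 was 7252, against 5202 in the next highest sample of the group. Ifit3 in COX-2>COX-1 sample 52 was 14033, against 8785 in the next highest. Iigp1 in WT-LPS sample 38 was 1685, against 552 in the next highest.

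WT-LPS sample 38 also held the highest value of its group for several but not all other interferon genes, named after their values were seen. Irf1 was 4994 there and at most 2914 in the other WT-LPS samples. Ifi44 was 101 and at most 44.3 in the others. Cxcl10 was 19.8 and at most 6.91 in the others, and Ifng was 13.7 and at most 1.58, both under the limit of detection of 20. Mx1 was 385 in sample 38 and lay within the range of the others, 265 to 497. Other samples were also higher for Ifit2 (148 in sample 38, 235 in sample 39), Ifit3 (199 against 295 in sample 39) and Irf7 (501 against 653 in sample 42). The same held for Cxcl9 and Mx2. No cause was tested. The calls of Ifit1, Ifit2, Ifit3, Ifi44 and Iigp1 against WT-LPS held without this sample.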

How the results depend on the processing

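Ifit1, Ifit2, Ifit3 and Iigp1 were called higher than in WT-LPS in all 4 LPS groups under every alternative run, and so was Ifi44 except with signal above 20 required in all samples, where it was not tested and the count of members called was 4. That count was 5 or, with Ifi27l2a below, 6 otherwise. Between genotypes it was 0 except as follows. Between COX-1>COX-2 and COX-2>COX-1 the count was 1 with only these groups fitted, where 22 of all 202 genes were called. With each sample left out in turn the count ran from 0 to 1 for Reversa against COX-2>COX-1 and from 5 to 6 for Reversa against WT-LPS, both without Reversa 51, and did not change elsewhere. Ifi27l2a was called lower than in WT-LPS with equal totals in WT+LPS (-0.75) and COX-2>COX-1 (-0.71), and with equal medians in Reversa (-1.17), COX-1>COX-2 (-0.95), COX-2>COX-1 (-1.17) and WT+LPS (-1.28). Other scalings moved the median of all genes by construction.

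Signs of differences near 0, none called, changed as follows. With equal totals: Ifit1 0.11 and Ifit2 0.016 in Reversa and Ifit3 0.15 in COX-1>COX-2 against WT+LPS, Ifi27l2a 0.17 in Reversa and Iigp1 0.099 in COX-1>COX-2 against COX-2>COX-1. With all 6 reference genes: Ifit3 -0.011 and Ifi27l2a -0.0063 in Reversa against WT+LPS, and Ifit3 -0.011 in Reversa against COX-1>COX-2. With equal medians: Ifit1 0.015 in Reversa and Ifit3 0.093 in COX-1>COX-2 against WT+LPS, and Ifi27l2a 0.0027 in Reversa against COX-2>COX-1. With the run as a block, Ifit3 was -0.018 in Reversa against WT+LPS. With Reversa 55 and 56 apart: Ifit3 -0.12 and Ifi27l2a -0.22 against WT+LPS, and Ifit2 -0.064 and Ifit3 -0.097 against COX-1>COX-2. The cause was not tested.

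With each sample left out, 16 of 66 results changed sign at least once, none called with it. Against WT+LPS in Reversa, Ifit1 ran from -0.16 to 0.13, Ifit2 from -0.36 to 0.080, Ifit3 from -0.17 to 0.22 and Ifi27l2a from -0.26 to 0.39. Against WT+LPS, Ifit3 ran from -0.10 to 0.086 in COX-1>COX-2 and Ifi44 from -0.0071 to 0.52 in COX-2>COX-1. In Reversa against COX-1>COX-2, Ifit2 ran from -0.088 to 0.36, Ifit3 from -0.15 to 0.24, Ifi44 from -0.34 to 0.11 and Ifi27l2a from -0.48 to 0.17. Ifi27l2a ran from -0.38 to 0.26 in Reversa against COX-2>COX-1, from -0.63 to 0.017 in Reversa against WT-LPS and from -0.068 to 0.18 between the single exchanges. In the interaction Ifit1 ran from -0.053 to 0.27, Iigp1 from -0.29 to 0.020 and Ifi27l2a from -0.60 to 0.044.

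With the replicate number as a block, fitted for COX-2>COX-1 and Reversa against WT+LPS and against each other, the count of members called was 0 in each, and Ifit3 in Reversa against WT+LPS was -0.015. Of the 16 same-numbered pairs 4 correlated over 0.1, and 2 samples matched best with their own number. No paired analysis was possible for the other comparisons because COX-1>COX-2 shares only number 55 with other groups and WT-LPS shares none. Mx2 between the single exchanges was not called with equal totals (limma adjusted p = 0.101), all 6 reference genes (0.0976) or the run as a block (0.0504), and reached 0.103 with samples left out. Cxcl9 in Reversa against COX-2>COX-1 was not called with equal medians (0.0533), and reached 0.074 with samples left out. For Ifi44, 2 of 6 WT-LPS samples lay under the limit of detection.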

Other observations

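Ifna1 and Ifnb1 did not pass the filter on low signal, and their values are given as they stand. Ifna1, a type I interferon, was 28.1, 44.1, 22.5, 27.1, 23.7 and 11.7 in the 6 COX-2>COX-1 samples, so 5 of 6 were above 20. In none of the other groups was any sample above 20: the highest was 19.6 in Reversa, 18.4 in COX-1>COX-2, 15.9 in WT+LPS and 5.39 in WT-LPS samples. The COX-2>COX-1 sample with the highest Ifna1, sample 52, also had the highest Ifit3 of all samples. It had the lowest Ifi44 (587) and Iigp1 (10790) of its group, however, and lay within the range of the group for Ifit1, Ifit2 and Ifi27l2a. No size of a difference is given, because the groups set against COX-2>COX-1 lie under the limit of detection of 20.

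Ifnb1, the interferon that LPS induces early in macrophages, was above 20 in 1 sample, COX-2>COX-1 sample 52, at 27.9. In that group it ran from 1 to 27.9, against 1 to 2.88 in WT+LPS samples. There all values but the 2.88 of sample 53 were at the floor of their lane. These levels lie near the limit of detection, and the choice to look at them was made after the values were seen.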
